A study of Homo sapiens with 40 samples.

Results

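FANK1, UNC5A, LRRC27, MAP1A and LMLN are 5 genes whose mRNA was higher after depletion of IGF2BP2 in RKO cells, a human colorectal carcinoma line in wide use. They were chosen from the measured values themselves: FANK1, UNC5A and LRRC27 because they rose both after an siRNA pool against IGF2BP2 and after induced cutting of the IGF2BP2 gene, MAP1A and LMLN because they were among the largest rises after the siRNA. They are 5 of 19962 genes in the count table and 5 of the 11428 genes with enough counts to be tested. All 5 passed that filter. Because the siRNA comparison chose all 5, and the cutting comparison chose FANK1, UNC5A and LRRC27, the values there are a description and carry no p-value. Tests are given only in comparisons that the choice did not use.

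The 40 poly(A) RNA libraries came from cells with doxycycline-inducible Cas9 and GFP that also expressed a pair of guide RNAs, in 10 groups of 4 libraries. The sgAAVS1 line, cut at the control locus AAVS1, was given DMSO or doxycycline (Dox). The sgIGF2BP2 and sgIGF2BP3 lines were each given DMSO, Dox, a non-targeting siRNA (siControl) or the siRNA pool against their own target (siIGF2BP2 or siIGF2BP3). Dox was used at 250 ng/mL for 72 hours and siRNA at 75 nM for 48 hours, and s4U, a nucleoside that labels new RNA, was present at 250 µM for 2 hours in all cells. Every group therefore shares inducible Cas9, guide expression and s4U labelling. The lines were sorted for the BFP marker of the guide vector, so each is a sorted population in which cutting need not be complete. Each library is 1 well, and the labels do not say that wells were separate cultures beyond the quadruplicate. The p-values then measure only the spread between wells, which may be technical.

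IGF2BP2 and IGF2BP3 are RNA-binding proteins of one family that bind many mRNAs and are known for stabilising them, in part by reading N6-methyladenosine, and both are often expressed in tumours. UNC5A is a receptor for netrins, secreted guidance cues of axon growth, and belongs to the dependence receptors, which can signal cell death without ligand. MAP1A is a microtubule-associated protein best known from neurons, and LMLN is a metalloprotease related to leishmanolysin. FANK1 has ankyrin and fibronectin type III domains and is best known from testis, and LRRC27 is a leucine-rich repeat protein of little known function.

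The libraries held 10018181 to 24822807 counts each, with a median of 13468792. IGF2BP2 itself stood at 85.3 ± 1.58 CPM (counts scaled to the library's total, SD, n = 4) in DMSO sgIGF2BP2 cells and at 33.9 ± 3.5 with Dox, and at 108 ± 4.10 with siControl and 30.2 ± 1.08 with siIGF2BP2. Of 9 colon epithelial markers 4 passed the filter (CDX2, EPCAM, KRT18 and KRT8), KRT20 had no count, and the summed level of the list was 211 to 311 CPM per library. Of 12 neuron markers, ELAVL4, NEFL, NEFM and STMN2 were at 0 in all libraries and the list summed to 1.43 to 3.86 CPM. The 9 male germ cell markers summed to 0.0837 to 1.30 CPM, with DAZL, PRM1, PRM2 and TNP1 at 0. In bulk RNA a change in the number of cells of a type and a change in RNA per cell cannot be told apart.

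The promoters of the 5 genes are shown because 4 of them hold 1 or both of 2 letter patterns near the start of the gene. FANK1 and LMLN share neither pattern with each other. Each run is 300 bases, 250 before and 50 after the start that RefSeq annotates on GRCh38.p14, read on the plus strand, on which all 5 genes lie. Capitals mark matches, on either strand, to an inverted repeat of GTNNNC (GTNNNC, 2 bases, then GNNNAC) or to CCATGG followed after 2 bases by AC. Matches to both overlap each other in LRRC27 and MAP1A. Both patterns were chosen after these sequences had been read. Their presence in the 5 genes was thus fixed in advance, and nothing is read from the number of members that hold them. The share of genes that hold either pattern was not counted. The patterns resemble the X-box, the DNA element of the RFX transcription factors, and a link to these factors was not tested.

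FANK1, chr10:125896314-125896613: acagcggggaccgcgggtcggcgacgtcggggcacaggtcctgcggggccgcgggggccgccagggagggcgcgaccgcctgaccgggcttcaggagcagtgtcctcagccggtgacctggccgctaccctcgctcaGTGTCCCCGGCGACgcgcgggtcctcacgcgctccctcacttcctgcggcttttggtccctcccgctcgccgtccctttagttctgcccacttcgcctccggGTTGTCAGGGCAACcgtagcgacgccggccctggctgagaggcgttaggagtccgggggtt
LRRC27, chr10:132331943-132332242: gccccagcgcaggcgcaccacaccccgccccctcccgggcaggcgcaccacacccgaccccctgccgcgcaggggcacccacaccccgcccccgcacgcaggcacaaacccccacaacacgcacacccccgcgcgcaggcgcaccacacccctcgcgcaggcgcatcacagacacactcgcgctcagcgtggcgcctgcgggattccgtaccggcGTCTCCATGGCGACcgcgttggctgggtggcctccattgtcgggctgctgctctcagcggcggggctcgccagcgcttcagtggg
MAP1A, chr15:43510704-43511003: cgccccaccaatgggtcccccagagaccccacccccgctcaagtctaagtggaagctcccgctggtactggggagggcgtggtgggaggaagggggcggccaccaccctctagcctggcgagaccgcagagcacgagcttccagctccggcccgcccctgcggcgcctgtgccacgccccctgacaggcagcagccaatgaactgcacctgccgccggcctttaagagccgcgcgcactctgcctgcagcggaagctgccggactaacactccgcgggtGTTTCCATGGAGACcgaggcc
LMLN, chr3:197959967-197960266: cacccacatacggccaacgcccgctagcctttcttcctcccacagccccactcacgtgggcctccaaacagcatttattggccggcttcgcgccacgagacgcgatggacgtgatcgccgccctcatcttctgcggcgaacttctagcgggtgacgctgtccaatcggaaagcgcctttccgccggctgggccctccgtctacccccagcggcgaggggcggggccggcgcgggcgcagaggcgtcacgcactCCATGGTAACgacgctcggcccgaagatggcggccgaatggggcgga
UNC5A, chr5:176810309-176810608: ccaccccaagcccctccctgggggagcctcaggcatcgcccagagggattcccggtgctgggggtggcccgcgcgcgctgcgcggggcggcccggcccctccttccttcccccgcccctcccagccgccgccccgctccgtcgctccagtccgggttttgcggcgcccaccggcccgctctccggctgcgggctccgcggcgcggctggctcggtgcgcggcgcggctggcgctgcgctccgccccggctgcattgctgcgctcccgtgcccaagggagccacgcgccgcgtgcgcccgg

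The inverted repeat was found in FANK1, LRRC27 and MAP1A, and in 6.03% of all 35116 RefSeq promoters of this length. Shares of all promoters here count promoters, while shares of genes count a gene if any of its promoters matched, so these are unlike measures. Among tested genes with a promoter entry the share was 9.02%, among those called higher after siIGF2BP2 (adjusted p under 0.05 by edgeR's quasi-likelihood test, which is what called means throughout) 11% and among those called lower 7.93%. Among the 36 other genes called at least 2-fold higher after siIGF2BP2 it was 5.56%. CCATGG followed by AC was found in LRRC27, MAP1A and LMLN, and in 2.14% of all promoters, 2.47% of tested genes, 3.57% of those called higher, 2.51% of those called lower and 8.33% of the 36. The matches began at -11 in FANK1 (with another at -113), at -35 in LRRC27, at 29 in MAP1A and at 3 in LMLN, counted from the annotated start. UNC5A held neither pattern. GGGCGG, searched on both strands like the rest, was found in all 5 genes, in 45.0% of all promoters and in 78.7% of tested genes. CCAAT was found in MAP1A and LMLN (34.6% of all promoters and 43.7% of tested genes), CACGTG in LMLN (7.26% and 12.9%) and GTTGCC in FANK1 (12.2% and 17.0%). TGACGT was found in none of the 5 (7.98% and 14.4%). FANK1, LRRC27 and MAP1A have another start in RefSeq whose promoter holds neither added pattern. Of 8 RFX genes, 5 were tested, and RFX5 was the 1 called after siIGF2BP2, at a log2 fold change of 0.11 (edgeR quasi-likelihood test, adjusted p = 0.0400). Over all tested genes 18.4% were called higher there. The other tested RFX genes gave -0.11 (RFX1) to 0.0066 (RFX2) with siIGF2BP2. With Dox, RFX5 gave 0.081 in sgIGF2BP2 cells (edgeR adjusted p = 0.202) and 0.16 in sgAAVS1 cells (edgeR adjusted p = 0.00689). A match is a run of letters and no measurement of binding.

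Over all tested genes, 18.4% were called higher with siIGF2BP2 and 15% had all 4 libraries above all 4 controls. With Dox in sgIGF2BP2 cells 10% were called higher and 8.92% lay above without overlap. With Dox in sgAAVS1 cells 8.68% were called lower and 9.48% lay below without overlap, and 4.01% were called higher for the difference of the Dox effects. These comparisons chose the genes, so nothing is read from the counts of members that pass in them.

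FANK1 (ENSG00000203780, GRCh38 chromosome 10, 125896539 to 126009592) was the lowest of the 5 genes, with 463 counts over all 40 libraries and 4 to 29 in any 1 library. Its level in siControl libraries was 0.714, 0.721, 0.552 and 0.452 CPM. In siIGF2BP2 libraries it was 1.99, 1.39, 1.56 and 1.81 CPM, all above all siControl libraries. The log2 fold change was 1.43 (SE 0.28). In DMSO sgIGF2BP2 cells the level was 0.662, 0.600, 0.530 and 0.286 CPM. With Dox it was 0.532, 1.22, 1.10 and 1.68 CPM. Replicate 1 with Dox lay inside the range of the DMSO libraries and the other 3 lay above it. The log2 fold change was 1.13 (SE 0.32), from 0.90 to 1.36 when any 1 library was left out.

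In the sgAAVS1 line FANK1 stood at 0.682, 0.609, 0.839 and 1.12 CPM with DMSO and at 0.472, 0.682, 0.536 and 0.758 CPM with Dox. These groups overlapped, and the log2 fold change was -0.43 (SE 0.34). The Dox effect in sgIGF2BP2 cells minus that in sgAAVS1 cells was 1.57 (SE 0.47). With DMSO alone, sgIGF2BP2 minus sgAAVS1 cells was -0.67 (SE 0.34). In the 16 libraries of the sgIGF2BP3 line FANK1 stayed between 0.391 and 1.01 CPM.

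UNC5A (ENSG00000113763, chromosome 5, 176810477 to 176880898), the netrin receptor, stood at 3.67, 2.69, 3.80 and 2.79 CPM with siControl. With siIGF2BP2 it was 5.71, 5.85, 5.21 and 6.42 CPM, all above siControl, a log2 fold change of 0.83 (SE 0.14). In sgIGF2BP2 cells it was 3.89, 3.60, 4.40 and 4.51 CPM with DMSO and 6.0, 5.42, 5.82 and 5.34 CPM with Dox. All Dox libraries lay above all DMSO libraries, with a log2 fold change of 0.43 (SE 0.13). In sgAAVS1 cells the order was the opposite: 4.02, 4.27, 4.50 and 5.24 CPM with DMSO against 3.58, 2.90, 2.77 and 2.27 CPM with Dox. The log2 fold change there was -0.64 (SE 0.15), and the difference of the Dox effects was 1.08 (SE 0.20). The fall in the control line was larger than the rise in the sgIGF2BP2 line. UNC5A shares 30 exon bases with HK3 on the opposite strand.

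LRRC27 (ENSG00000148814, chromosome 10, 132332154 to 132379918) followed the same order with smaller steps. It stood at 4.39, 4.85, 4.97 and 6.18 CPM with siControl and at 8.23, 6.62, 8.03 and 7.98 CPM with siIGF2BP2, with no overlap and a log2 fold change of 0.61 (SE 0.12). In sgIGF2BP2 cells it was 5.05, 5.66, 5.22 and 4.58 CPM with DMSO and 6.16, 6.02, 5.92 and 7.32 CPM with Dox, again with no overlap and a log2 fold change of 0.31 (SE 0.13). In sgAAVS1 cells it was 6.06, 5.42, 6.18 and 6.01 CPM with DMSO and 5.13, 4.09, 4.02 and 3.79 CPM with Dox. All 4 Dox libraries of that control line lay below all 4 DMSO libraries, with a log2 fold change of -0.46 (SE 0.14). The difference of the Dox effects was 0.77 (SE 0.19). The control line again fell by more than the sgIGF2BP2 line rose.

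**Figure D1:**
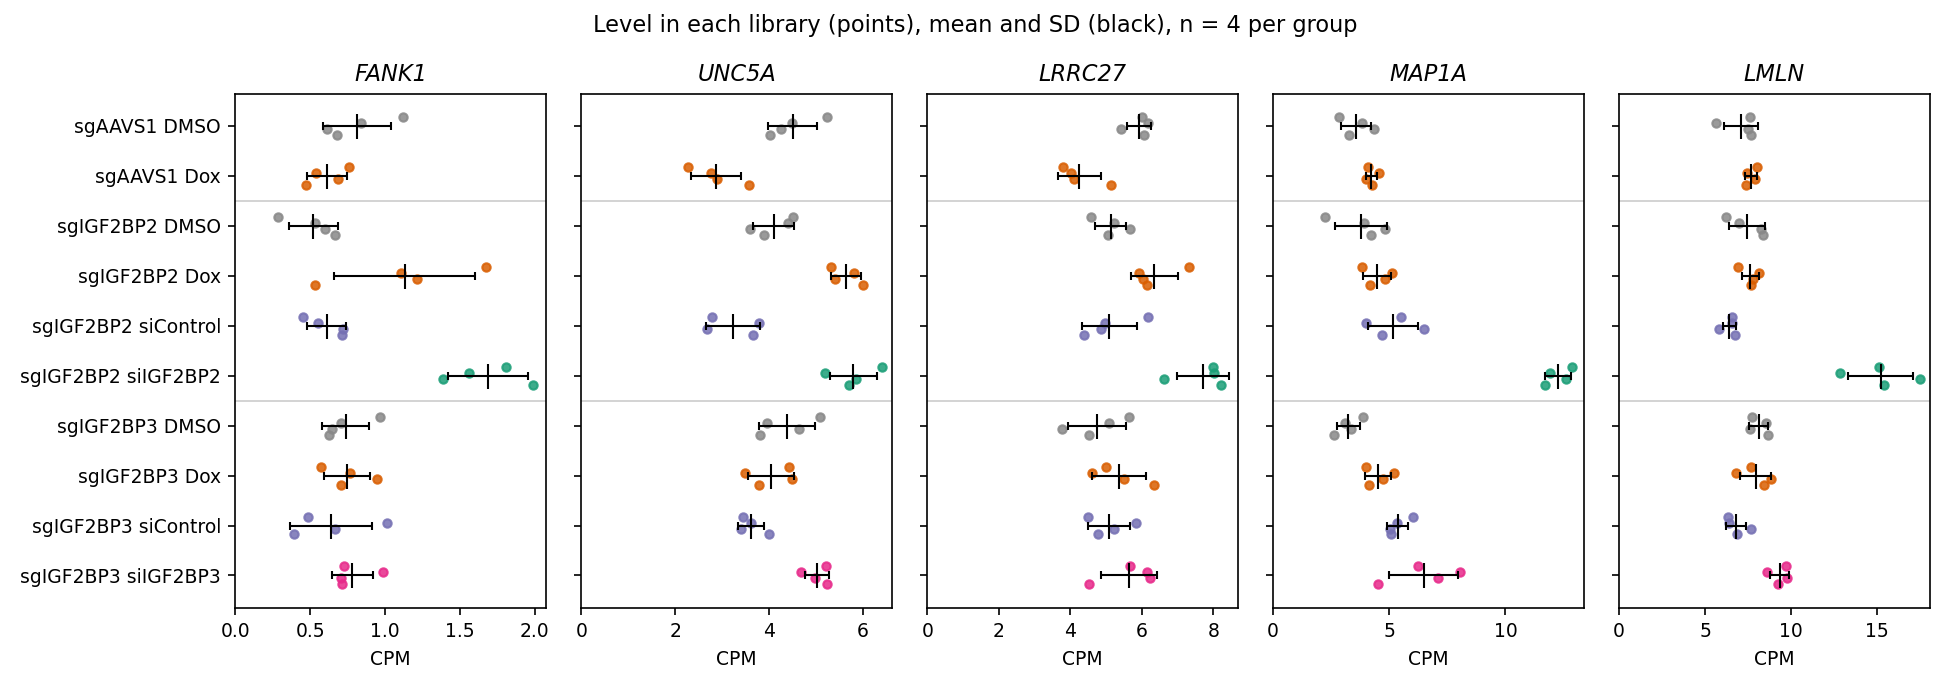
Level of each gene in CPM (x axis, from 0, own scale per gene) in the 10 groups (y axis), with 1 point per library and the mean and SD of 4 libraries in black. The siIGF2BP2 group is the highest group of all 5 genes, and for MAP1A (11.7 to 12.8 CPM) and LMLN (12.9 to 17.5 CPM) it lies apart from every other group.

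MAP1A (ENSG00000166963, chromosome 15, 43510958 to 43531620), the microtubule-associated protein, stood at 4.69, 6.49, 4.00 and 5.50 CPM with siControl. With siIGF2BP2 it was 11.7, 12.6, 11.9 and 12.8 CPM, above every other library of the series. The log2 fold change was 1.25 (SE 0.13). With Dox in the same line it was 4.18, 4.81, 5.12 and 3.81 CPM, against 4.22, 4.80, 3.91 and 2.22 CPM with DMSO, and these groups overlapped. That comparison did not choose MAP1A and was tested: the log2 fold change was 0.25 (SE 0.17, 95% interval -0.08 to 0.58, adjusted p = 0.323 by edgeR's quasi-likelihood test). Without DMSO replicate 4, the lowest library, it was 0.078, and it ranged up to 0.35 when another library was left out. In sgAAVS1 cells Dox gave 0.25 (SE 0.18, adjusted p = 0.358). The neuron markers summed to 1.91 CPM on average with siControl and 2.77 CPM with siIGF2BP2. Neither tested one, SYP or TUBB3, was called there, and their part in the level of MAP1A was not tested.

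LMLN (ENSG00000185621, chromosome 3, 197960200 to 198043720), the metalloprotease, stood at 6.73, 5.84, 6.56 and 6.56 CPM with siControl and at 15.4, 17.5, 12.9 and 15.1 CPM with siIGF2BP2. No other library of the series reached the lowest of these. The log2 fold change was 1.24 (SE 0.10). In sgIGF2BP2 cells LMLN was 8.36, 8.24, 6.97 and 6.23 CPM with DMSO and 7.68, 7.79, 8.13 and 6.94 CPM with Dox. The Dox libraries lay inside the range of the DMSO libraries, with a log2 fold change of 0.052 (SE 0.11, 95% interval -0.17 to 0.27, adjusted p = 0.796). In sgAAVS1 cells Dox gave 0.11 (SE 0.11, adjusted p = 0.586). LMLN shares 296 exon bases with LMLN-AS1, an antisense gene on the opposite strand that has no row in the table used here.

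The knockout beyond the control line was tested for both genes that the siRNA alone had chosen. Dox in sgIGF2BP2 cells minus Dox in sgAAVS1 cells gave -0.0058 (SE 0.24, 95% interval -0.48 to 0.47, adjusted p = 0.993) for MAP1A and -0.054 (SE 0.16, 95% interval -0.37 to 0.26, adjusted p = 0.892) for LMLN. IGF2BP2 mRNA fell by 1.34 on the log2 scale with Dox and fell by 1.84 with the siRNA. IGF2BP3 mRNA gave -0.246 with Dox in sgIGF2BP2 cells (edgeR quasi-likelihood test, adjusted p = 2.93e-06), without overlap. The difference from sgAAVS1 cells was -0.290 (adjusted p = 0.000372). With siIGF2BP2 it gave -0.040 (SE 0.040), with overlap. The part of IGF2BP3 in the Dox values was not tested. Neither MAP1A nor LMLN was called with Dox in either line or in the difference. Neither had an unadjusted p under 0.05 there, and DESeq2 called neither, giving no adjusted p for the difference. Over all tested genes 20.4% were called with Dox in sgIGF2BP2 cells, 15.9% in sgAAVS1 cells and 6.97% for the difference. The siRNA effect was not tested against the Dox effect, since the siRNA comparison chose both genes.

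**Figure D2:**
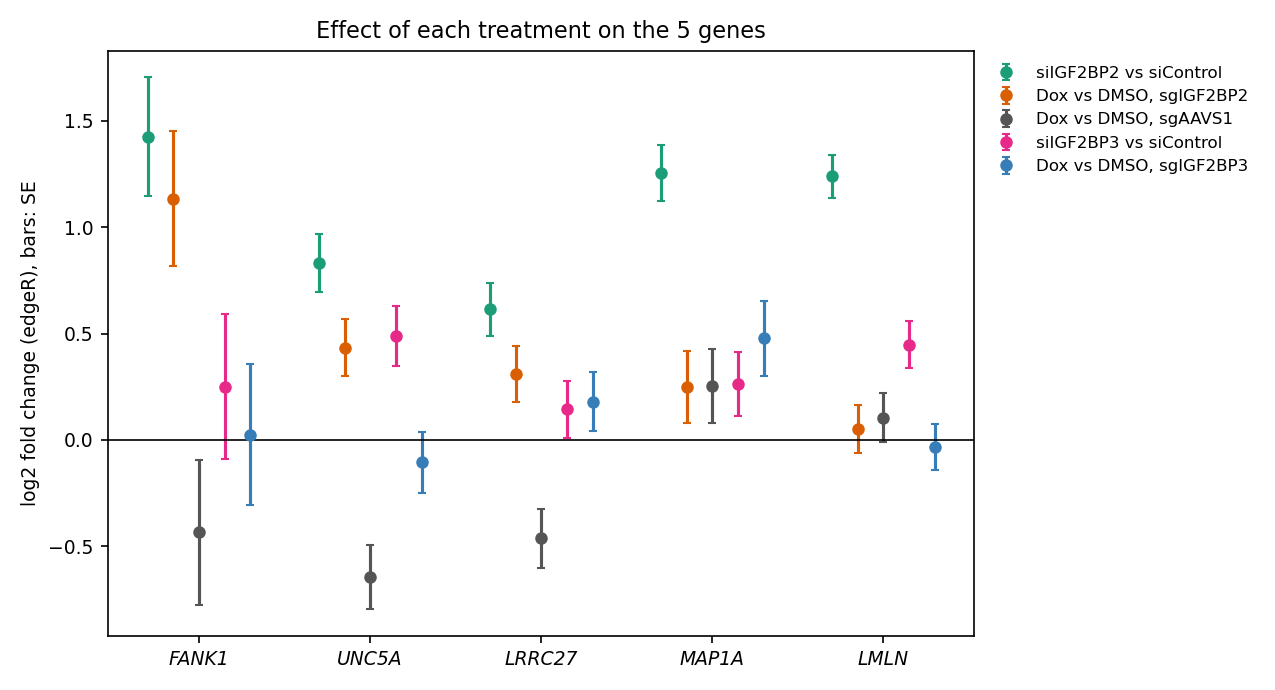
Log2 fold change of each gene (x axis) under 5 treatments (colours), with the SE as bars. FANK1, UNC5A and LRRC27 lie above 0 with siIGF2BP2 and with Dox in sgIGF2BP2 cells and below 0 with Dox in sgAAVS1 cells, while MAP1A and LMLN lie above 1 only with siIGF2BP2 among the 5 treatments plotted.

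MAP1A (1.25) and LMLN (1.24) come after MAPK15 (2.13) among the largest log2 rises with siIGF2BP2, in called genes without overlap whose mean log2 CPM was 2 or more, and RAB26 (1.10) is the first gene outside. Ranked by the smaller of the siRNA and knockout effects over 160 genes called higher by both, FANK1 and UNC5A come first and BBS12, a chaperonin-like protein of the Bardet-Biedl syndrome (0.75 with siRNA and 0.93 for the knockout), stands between UNC5A and LRRC27. NAGLU, a lysosomal enzyme (0.63 and 0.58), is the next after LRRC27.

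**Figure D3:**
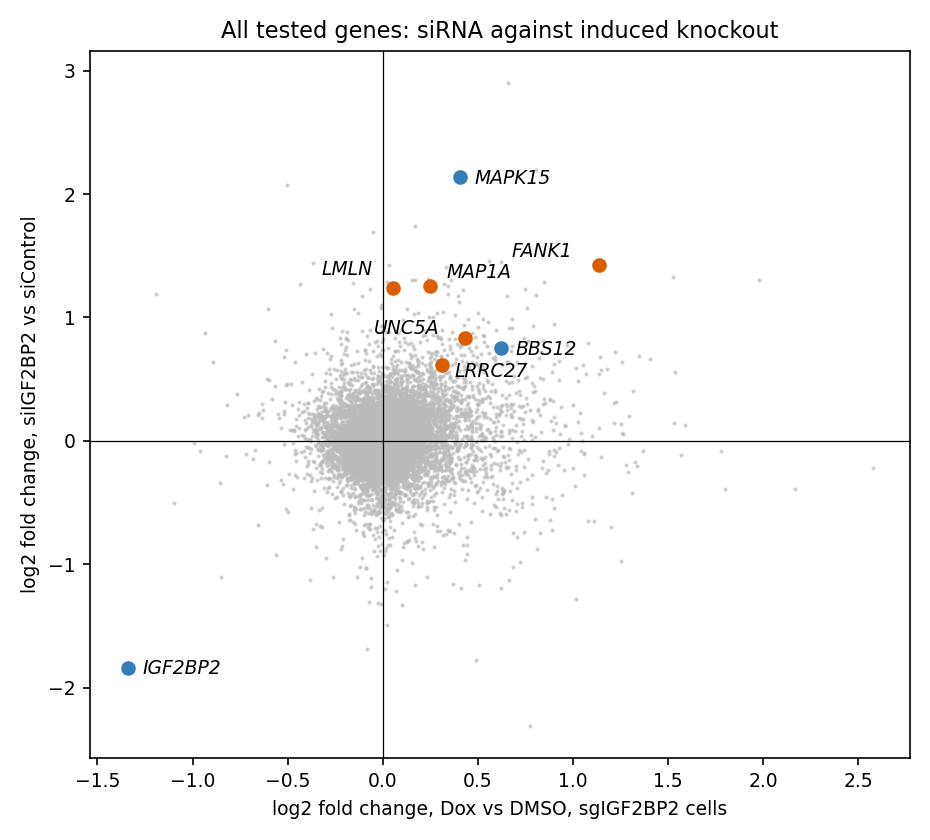
Log2 fold change with Dox in sgIGF2BP2 cells (x axis) against that with siIGF2BP2 (y axis) for all 11428 tested genes (grey), with the 5 genes in orange and MAPK15, BBS12 and IGF2BP2 in blue. LMLN (0.052 and 1.24) lies close to the vertical zero line, whereas FANK1 (1.13 and 1.43) lies high on both axes.

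The sgIGF2BP3 line was used by no part of the choice, and all 5 genes were tested there. With siIGF2BP3, LMLN rose: it was 6.84, 7.65, 6.42 and 6.34 CPM with siControl and 9.24, 9.75, 8.62 and 9.73 CPM with siIGF2BP3. All 4 lay above all controls. On the log2 scale the rise was 0.45 with an SE of 0.11, and edgeR gave an adjusted p of 0.0109. Without siControl replicate 3 or replicate 4 the adjusted p was 0.0514 or 0.0555, so the call rests on those libraries, and the other 6 such fits kept it. The rise was smaller than the 1.24 seen with siIGF2BP2, but the difference was not tested, since siIGF2BP2 chose the gene. UNC5A stood at 4.01, 3.40, 3.63 and 3.45 CPM with siControl and at 5.23, 4.99, 4.68 and 5.23 CPM with siIGF2BP3. On the log2 scale it rose by 0.49 (SE 0.14) without overlap, and the adjusted p from edgeR was 0.0469. That call was lost when any 1 of the 8 libraries was left out (adjusted p = 0.0572 to 0.156) and with no filter on low counts (adjusted p = 0.101). The other 3 did not pass: FANK1 gave 0.25 (SE 0.34), LRRC27 0.14 (SE 0.14) and MAP1A 0.26 (SE 0.15). So 2 of 5 genes were called, both higher, where 2.34% of all tested genes were called and 0.936% were called higher. Of all tested genes 4.56% had 4 libraries above 4 controls. DESeq2 called LMLN and gave UNC5A no adjusted p.

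With Dox in sgIGF2BP3 cells none of the 5 genes was called by edgeR's quasi-likelihood test, where 2.64% of all tested genes were. One of the 5, MAP1A, had an unadjusted p under 0.05, and DESeq2 gave none of the 5 an adjusted p. MAP1A was 2.63, 3.36, 3.11 and 3.86 CPM with DMSO and 4.13, 4.73, 5.20 and 4.01 CPM with Dox. The groups did not overlap, as for 5.76% of tested genes, and the log2 fold change of 0.48 (SE 0.17, adjusted p = 0.124) did not pass. The other 4 gave values between -0.11 (UNC5A) and 0.18 (LRRC27). IGF2BP3 mRNA fell by 1.68 on the log2 scale in this comparison and fell by 2.78 with siIGF2BP3.

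Transfection with the non-targeting siRNA was set against DMSO in the same line, as a check on the starting level. MAP1A was 5.08, 5.04, 5.32 and 6.02 CPM with siControl, all above its DMSO libraries, and its rise of 0.73 on the log2 scale (SE 0.17) passed edgeR's test with an adjusted p of 0.000837. The call was kept in 8 of 8 fits that left out 1 library. No other of the 5 was called (UNC5A -0.29, adjusted p = 0.163, LMLN -0.24, adjusted p = 0.122, FANK1 -0.18 and LRRC27 0.11), where 19.4% of all tested genes were called, 10.9% higher, and 12.2% lay above without overlap. These groups differ in DMSO as well as in transfection. LMLN had an unadjusted p of 0.0341 by edgeR's test, with a mean of 6.81 CPM with siControl and 8.13 CPM with DMSO. For UNC5A these means were 3.62 and 4.38 CPM. The siIGF2BP3 libraries of LMLN (8.62 to 9.75 CPM) and UNC5A (4.68 to 5.23 CPM) overlapped the DMSO libraries of the line, which reached 8.65 and 5.10 CPM. In sgIGF2BP2 cells the siControl mean of MAP1A was 5.17 ± 1.07 CPM and the DMSO mean 3.79 ± 1.11 CPM (SD, n = 4). The mean starting level of MAP1A was thus higher in the siRNA comparison than in the Dox comparison, with overlapping libraries.

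Levels were also compared between the lines with DMSO alone. Between DMSO sgIGF2BP3 and DMSO sgAAVS1 cells none was called, where 0.0175% of all tested genes were. LRRC27 had the largest tested log2 fold change, -0.32 (SE 0.13, adjusted p = 0.313), and was the 1 with an unadjusted p under 0.05. DESeq2 called none of them. MAP1A and LMLN, tested also between sgIGF2BP2 and each other line with DMSO, were not called, at an unadjusted p under 0.05 or by DESeq2 either.

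The order of the groups differed between the genes. For UNC5A the mean was highest with siIGF2BP2 (5.80 ± 0.50 CPM) and with Dox in sgIGF2BP2 cells (5.64 ± 0.319), and these overlapped. The third group was siIGF2BP3 (5.03 ± 0.261), which lay below all Dox libraries of the sgIGF2BP2 line and overlapped siIGF2BP2. For FANK1 no group lay wholly above the next one. Per kb of exon sequence the group means ranged from 0.154 to 0.498 CPM for FANK1, 0.661 to 1.33 for UNC5A, 0.430 to 0.779 for LRRC27, 0.305 to 1.15 for MAP1A and 0.739 to 1.75 for LMLN. On that scale LMLN was the highest of the 5 and FANK1 the lowest of the 5 in highest group mean. That group was siIGF2BP2, which chose the genes. With DMSO, UNC5A stood above LMLN in each line: 1.03 against 0.817 in sgAAVS1, 0.941 against 0.857 in sgIGF2BP2 and 1.01 against 0.935 in sgIGF2BP3 cells. By CPM only 3.43% of tested genes were lower than FANK1, 13.5% than UNC5A, 15.6% than MAP1A, 16.0% than LRRC27 and 20.9% than LMLN.

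FANK1, LRRC27, MAP1A and LMLN each have a tested gene that starts head to head with them within 1000 bases, an arrangement found for 16.9% of the 11423 tested genes placed on the annotation. The partners' expression is given because their promoters face the same gap. DHX32, an RNA helicase 103 bases from FANK1, gave a log2 fold change of 0.10 with siIGF2BP2 (adjusted p = 0.135). TP53BP1, a DNA repair protein 230 bases from MAP1A, gave -0.0075 (adjusted p = 0.926), and IQCG, a cilium protein 58 bases from LMLN, gave -0.065 (adjusted p = 0.328). STK32C, a kinase 307 bases from LRRC27, was called at 0.22 (adjusted p = 0.0455) and at 0.27 with Dox in sgIGF2BP2 cells (adjusted p = 0.0219). In sgAAVS1 cells Dox gave it -0.070, and the difference of the Dox effects, 0.34, did not pass edgeR's test (adjusted p = 0.0960). So 1 of 4 partners was called higher with the siRNA, where 18.4% of all tested genes were, and LRRC27 itself stood at 0.61. UNC5A has no such partner, and its nearest tested genes TSPAN17 and UIMC1 gave 0.15 (adjusted p = 0.00266) and -0.090 (adjusted p = 0.240).

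The wider neighbourhoods were compared with all tested genes. The 20 nearest tested genes had a median siIGF2BP2 log2 fold change of 0.075 around FANK1, 0.018 around UNC5A, 0.11 around LRRC27 and 0.034 around MAP1A, and the 10 before LMLN had -0.0064, beside 0.011 over all tested genes. In that order 4, 3, 5 and 5 of 20 and 1 of 10 were called higher, and 1, 4, 0, 3 and 0 lower, where 18.4% of all tested genes were called in each direction. FANK1 and LRRC27 lie on the same arm, 6.32 Mb apart with 8 tested genes between them, so each is among the neighbours of the other. LMLN is the last of 636 tested genes on chromosome 3, 12.1 Mb beyond IGF2BP2 itself, the gene that is cut. The 48 tested genes from there to the end had a median log2 fold change of -0.078 with Dox in sgIGF2BP2 cells (3 higher, 10 lower) and 0.061 in sgAAVS1 cells (6 higher, 1 lower). Over all tested genes 10% were higher and 10.4% lower in the first, and 7.25% higher and 8.68% lower in the second. For the difference the median was -0.13, with none higher and 6 lower, where 4.01% of all genes were higher and 2.97% lower, and its cause was not tested. LMLN, at -0.054, was not called there.

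**Figure D4:**
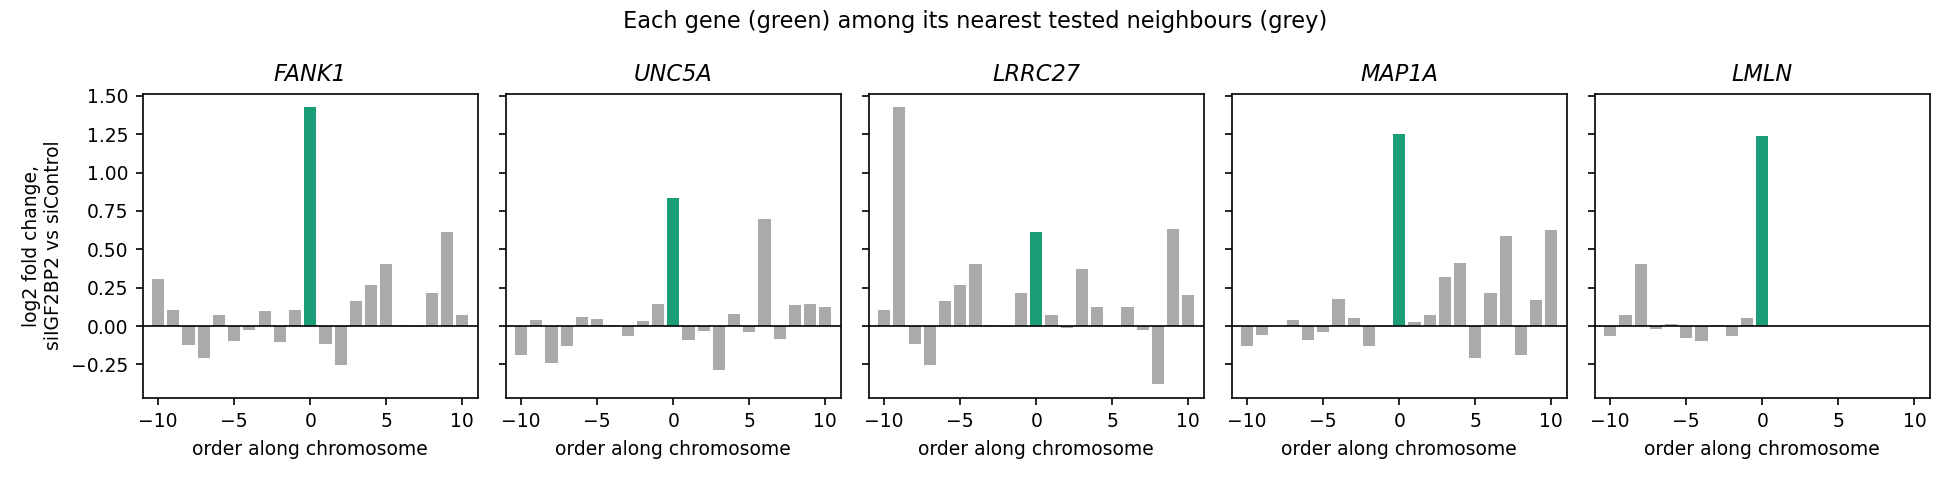
Log2 fold change with siIGF2BP2 (y axis) of each gene (green) and of the tested genes nearest to it in order along the chromosome (x axis, up to 10 on each side, grey). FANK1 appears among the neighbours of LRRC27 and LRRC27 among those of FANK1, and no gene lies beyond LMLN.

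The guides against IGF2BP2 are shown to compare them with the 5 genes, because FANK1, UNC5A and LRRC27 were higher after cutting with them.

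sgIGF2BP2 guide 1: atatgtgacgttgacaacgg
sgIGF2BP2 guide 2: gtgcgctgaggttcaaccct

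No stretch of the transcripts or promoters of the 5 genes matched guide 1 with fewer than 6 mismatches, or guide 2 with fewer than 5. The 5 mismatches were in LMLN, and FANK1, UNC5A and LRRC27 had at least 6 to either guide. Introns were not searched, and the siRNA sequences were not used here. The 5 mRNAs differ in length: the longest coding transcript is 1296 bases for FANK1, shorter than most tested genes (median 3419), and 10553 for MAP1A, longer than 96.8% of them. The GGAC core of the N6-methyladenosine site occurs 5.40 times per kb in FANK1, 7.61 in UNC5A, 1.73 in LRRC27, 5.78 in MAP1A and 3.69 in LMLN, beside a median of 3.67.

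Genes of the pathways around the 5 were described from lists of known members. Over all tested genes 18.4% were called in each direction with siIGF2BP2, and 10% higher and 10.4% lower with Dox in sgIGF2BP2 cells. With Dox in sgAAVS1 cells these shares were 7.25% and 8.68%, and for the difference of the Dox effects 4.01% and 2.97%. For UNC5A the netrin list held 20 tested ligands, receptors and adaptors, of which 5 were called higher and 5 lower with siIGF2BP2 (25% each, median -0.062) and 3 higher and 1 lower with Dox in sgIGF2BP2 cells. Dox in sgAAVS1 cells also called 3 of them higher and 1 lower, and the difference of the Dox effects 1 higher and 3 lower. The trafficking adaptor PICK1 rose by 1.06 with Dox in sgIGF2BP2 cells (adjusted p = 0.00256), but gave 0.52 in sgAAVS1 cells, and the difference of 0.54 did not pass (adjusted p = 0.475). With siIGF2BP2 it gave -0.28 (adjusted p = 0.538). DAPK1 and ABLIM1, also on the netrin list, were called lower with siIGF2BP2, at -0.27 (edgeR adjusted p = 0.000352) and -0.24 (edgeR adjusted p = 3.68e-06). Neither was called with Dox in sgIGF2BP2 cells (-0.13 and 0.031). For MAP1A the microtubule list held 26, of which 4 were called higher (15.4%) and 7 lower (26.9%) with siIGF2BP2 (median -0.050). Dox called 1 of them higher and 5 lower in sgIGF2BP2 cells, and 6 higher and 2 lower in sgAAVS1 cells. The difference of the Dox effects called none higher and 2 lower. With siIGF2BP2, MAPRE3, a plus-end binding protein, rose by 0.66 (adjusted p = 0.00486) and STMN1, which destabilises microtubules, by 0.41 (adjusted p = 1.27e-13). MAP1LC3C, an autophagy protein of the LC3 family, fell by 1.13 with siIGF2BP2 (adjusted p = 6.65e-37). Dox in sgIGF2BP2 cells gave STMN1 the opposite direction, -0.22 (edgeR adjusted p = 1.54e-05), with -0.12 for the difference of the Dox effects (edgeR adjusted p = 0.201). The same Dox comparison gave MAPRE3 0.18 (edgeR adjusted p = 0.575) and MAP1LC3C -0.38 (edgeR adjusted p = 4.19e-13). For LMLN the metalloprotease list held 24, of which 1 was called higher (4.17%) and 8 lower (33.3%) with the siRNA (median -0.053). Dox called 3 of these higher and none lower in sgIGF2BP2 cells, and 1 higher and 4 lower in sgAAVS1 cells. The difference of the Dox effects called 1 higher and none lower. The interstitial collagenase MMP1 fell by 0.82 with siIGF2BP2 (adjusted p = 4.72e-07), but Dox in sgIGF2BP2 minus sgAAVS1 cells gave 0.81 (adjusted p = 0.000756), with values of 0.21 in sgIGF2BP2 and -0.60 in sgAAVS1 cells. Most tested genes of these 3 lists were not called higher. Of 30 germline genes, listed for FANK1, 2 were tested and none was called.

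A list of motile cilium genes holds MAPK15, a kinase of cilium formation that rose more than MAP1A and LMLN, and IQCG, the neighbour of LMLN. It is not independent evidence of direction, since the rise of MAPK15 was known from these samples. Of its 27 tested genes 9 were called higher and 1 lower with siIGF2BP2, and 81.5% lay above 0 (median 0.25). Over all tested genes 18.4% were called in each direction, 52.1% lay above 0 and the median was 0.011. CCDC40, needed for assembly of dynein arms, rose by 1.00 (adjusted p = 1.18e-09) and HYDIN, of the central pair, by 0.87 (adjusted p = 0.00153). DNAH7, an inner arm dynein of low count chosen after its value was seen, rose by 2.90 (adjusted p = 1.38e-08). CFAP20 fell by 0.38 (adjusted p = 1.68e-08). With Dox in sgIGF2BP2 cells 3 were called higher and 4 lower (median 0.056), and MNS1, which had risen with siIGF2BP2 by 0.44 (adjusted p = 0.00464), fell by 0.56 (adjusted p = 0.00116). In sgAAVS1 cells Dox called 2 of the list higher and 3 lower. For the difference of the Dox effects none of the 27 was called, MNS1 included, where 4.01% of all tested genes were called higher and 2.97% lower. With siIGF2BP3 none was called. Markers of multiciliated cells summed to 14.3 CPM with siControl and 17.1 CPM with siIGF2BP2 on average, 9.92 to 18.7 CPM over the libraries, with TEKT1 at 0. Of the 2 tested ones RSPH1, also on the cilium list and of low count, rose by 1.30 with siIGF2BP2 (adjusted p = 0.0285) and by 1.98 with Dox in sgIGF2BP2 cells (adjusted p = 0.000918), and MCIDAS gave 0.17 with siIGF2BP2 (adjusted p = 0.108) and fell by 0.25 with Dox (adjusted p = 0.0397). Neither was called for the difference of the Dox effects, and the part of the markers in the change was not tested.

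**Figure D5:**
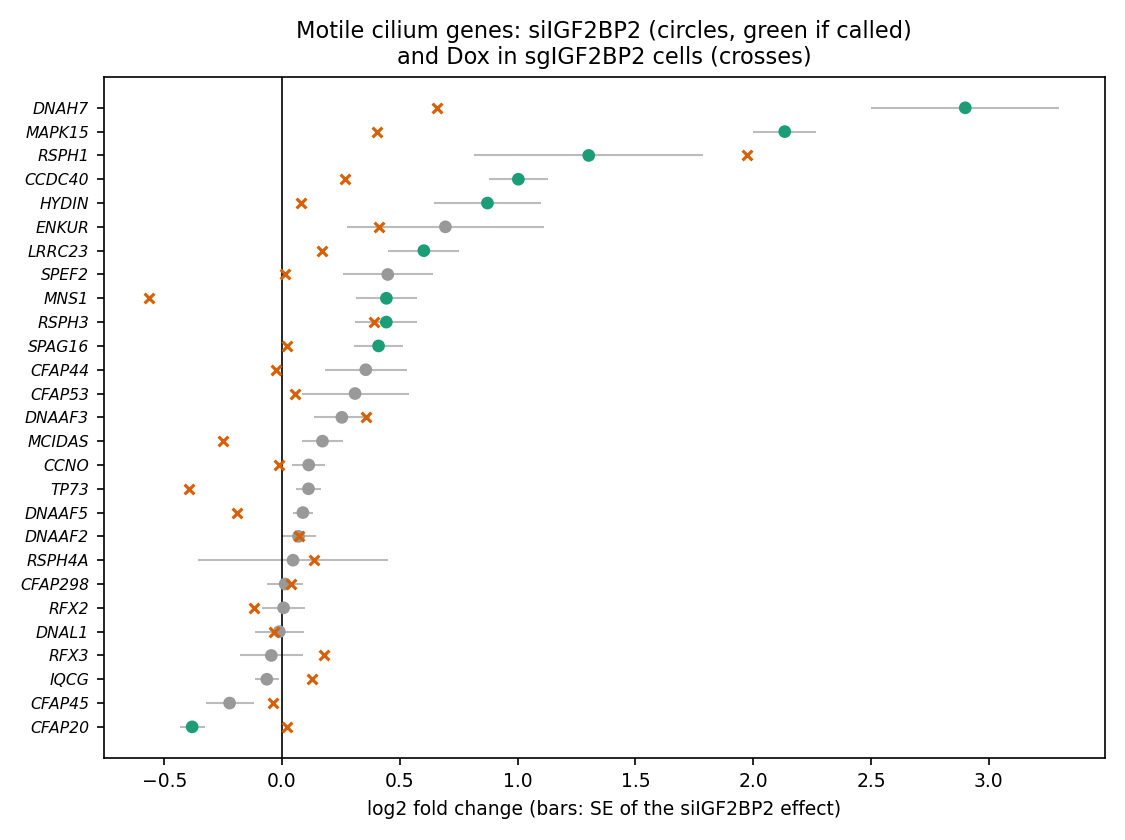
Log2 fold change with siIGF2BP2 (circles, SE as bars, green if the adjusted p was under 0.05) and with Dox in sgIGF2BP2 cells (crosses) of the 27 tested motile cilium genes (y axis). DNAH7 (2.90) and MAPK15 (2.13) lie farthest to the right with siIGF2BP2, and CFAP20 (-0.38) is the called gene to the left.

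The genes whose levels most resembled each of the 5 were found by Pearson's r of log2 CPM over the 40 libraries, which share the treatments that chose the 5. They were RNF207 (r = 0.73) and SPATA6L (0.71) for FANK1, RGMB (0.77) and CDPF1 (0.70) for UNC5A, and ENGASE (0.75) and NPDC1 (0.75) for LRRC27. KIFC2 was among the 3 nearest of both FANK1 (0.70) and LRRC27 (0.74). NRBP2 (0.89) and HSF4 (0.88) stood nearest to MAP1A, and SLC25A29 (0.85) and MAPK15 (0.82) to LMLN. Among the 5 themselves r ranged from 0.28 (UNC5A and MAP1A) to 0.70 (MAP1A and LMLN). With Spearman's rho only LRRC27 kept all 3 of its nearest genes, and with Pearson's r over the 10 group means no gene kept more than 1.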

How the data were processed

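RNA was measured in 40 libraries, and the authors deposited 1 table of counts of reads per gene, not normalized. STAR 2.7.5c, bcl2fastq 2.20.0.422 and hg38 are named in the submitters' processing notes. The counting tool, its annotation and its use of strand are not given in the sources used here. Newly made and older RNA are counted together. Of 19962 identifiers, 19895 matched the name table and 19847 GENCODE 29 (GRCh38).

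Groups were taken from the labels. Genes passing edgeR's filterByExpr by group (11428, with 99.98% of counts) were fitted with edgeR 4.0.16 (TMM, glmQLFit and glmQLFTest, 1 coefficient per group over all 40 libraries, R 4.3.3). P-values were adjusted by Benjamini-Hochberg over all tested genes, a gene being called under 0.05. SE is the size of the log2 fold change divided by the square root of F. CPM uses TMM-scaled totals, and log2 CPM a prior count of 2. Over 60 replicate pairs within groups the chi-square per gene was 1.49 to 16.6 (median 2.27), so no library was a duplicate of another in its group. Pairs across groups were not compared in this way. The script was tested on simulated data. Alternatives were DESeq2 1.42.0, its size factors, no filter, a replicate block, only the groups compared, and leaving out each library.

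Named genes are the 5, IGF2BP2 and IGF2BP3, genes next to the choice, the 3 of highest Pearson's r per gene (mean log2 CPM of at least 2), up to 3 changed genes per list (mean log2 CPM of at least 0), and chromosomal neighbours. RFX genes and 2 promoter patterns were added later, and 1 marker gene is not reported here. The 5 genes and the lists were chosen with earlier results of these data known. Head-to-head partners were found within 1000 bases.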

Additional observations from a re-analysis of the deposited data

Results flagged for a closer look

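Of 50 groups of 4 libraries (5 genes in 10 groups), 4 held a library that stood far from the other 3, where chance gives about 1 in 20. FANK1 was highest in siIGF2BP3 replicate 3, at 0.985 CPM beside 0.705 to 0.726. LMLN was lowest in sgAAVS1 DMSO replicate 3, at 5.64 CPM beside 7.52 to 7.65. LRRC27 was highest in sgIGF2BP2 Dox replicate 4, at 7.32 CPM beside 5.92 to 6.16, and lowest in siIGF2BP2 replicate 2, at 6.62 CPM beside 7.98 to 8.23.

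For UNC5A and LRRC27 every Dox library lay above the DMSO libraries in sgIGF2BP2 cells and below them in sgAAVS1 cells. The difference of the Dox effects was 1.08 for UNC5A and 0.77 for LRRC27 on the log2 scale. These differences were not tested, because they chose both genes.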

How the results depend on the processing

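Of 30 tested results on the 5 genes, 135 of 137 alternatives with an adjusted p kept direction and call. The exceptions were both UNC5A with siIGF2BP3, at 0.49 with no filter (adjusted p = 0.101) and 0.49 with the replicate block (adjusted p = 0.0506). Alternatives in which the filter dropped the gene or DESeq2 gave no adjusted p are not counted. The latter held for all 5 genes with Dox in sgIGF2BP3 cells. Same-numbered replicates correlated at no more than 0.097 in any pair of the 9 comparisons examined. A small r over all tested genes cannot show that they share nothing but a number. In all 9 comparisons of 2 groups but 1, 0 to 4 of 8 libraries correlated best with their own number; between DMSO sgIGF2BP3 and sgAAVS1 cells all 8 did, a hint from the data and not from the design. The block changed no other call of the 5. The 20 untested values came from comparisons holding libraries that the choice used. A refit was counted as the same if it differed from the main value by less than the largest SD of log2 CPM within a compared group. This held in 92 of 92 alternatives with an adjusted p. It also held in 184 of 184 fits that left out 1 library, none of which changed the sign. Many of these values were chosen for their size and direction, so refits were likely to stay close, and the tally is no independent support. Of 256 fits of tested results that left out 1 library, 223 kept direction and call. The log2 fold changes ranged from 0.45 to 0.53 for UNC5A and 0.41 to 0.52 for LMLN with siIGF2BP3. Small values changed sign: LMLN -0.016 to 0.11 and, for the difference, -0.12 to 0.036, MAP1A -0.17 to 0.11 for the difference, FANK1 -0.11 to 0.17 and LMLN -0.090 to 0.030 with Dox in sgIGF2BP3 cells. Between DMSO sgIGF2BP3 and sgAAVS1 cells FANK1 ranged from -0.32 to 0.048 and UNC5A from -0.13 to 0.040, and between DMSO sgIGF2BP2 and sgAAVS1 cells MAP1A ranged from -0.024 to 0.26 and LMLN from -0.047 to 0.11.

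Counts of called genes moved more. Only the groups compared gave 477 in place of 302 with Dox in sgIGF2BP3 cells and 465 in place of 267 with siIGF2BP3. Between DMSO sgIGF2BP3 and sgAAVS1 cells 2 became 35 with no filter, 6 with the block, 4 with only the groups compared and 5 with DESeq2, and between sgIGF2BP2 and sgAAVS1 cells 2 became 4 with no filter. Leaving out 1 library gave 108 to 285 with Dox in sgIGF2BP3 cells (108 without Dox replicate 4), 1 to 74 (74 without sgAAVS1 replicate 4), 1 to 2 and, between sgIGF2BP3 and sgIGF2BP2, 0 to 2. List counts stayed within 1.5 times in 151 of 160 alternatives, with 5 in place of 3 cilium genes higher with Dox in sgIGF2BP2 cells with no filter. The cause of these shifts was not tested. FANK1, with at most 29 counts in a library, has the least precise values of the 5.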
